A study of Mus musculus with 10 samples.

Results

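Of the 201290 places on chromosomes 1 to 19 and X where at least 1 of 10 mouse bone marrow stroma libraries had an ATAC-seq peak, 8020 were both open in all 10 libraries and close to the end of a gene. ATAC-seq cuts accessible DNA with a transposase, and a peak is a stretch with more cuts than its background. Overlapping peaks of all libraries were merged into union regions, and a region counted as open in a library with any overlapping peak. Regions open in all 10 libraries whose nearest edge lay within 1 kb of either boundary, start or end, of a protein-coding gene (mm10 coordinates) were taken. They made up 76.1% of the 10538 regions open in every library, and were chosen by the presence of peaks in these same libraries. Presence in every library, and the distance to a gene, are therefore not results.

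The libraries came from C57BL/6J mice. The first 3 groups trace to stroma that was negative for the blood markers CD45 and Ter119 and the endothelial marker CD31 and carried the Scf-GFP reporter, which lights up where Kitl, the stem cell factor gene, is active. rMSC (revitalized MSCs, n = 3) were such cells grown in culture and transduced with 5 genes (Irf3, Irf7, Klf7, Ostf1 and Xbp1). The control group (n = 3) was cultured stroma that received a control vector. Both cultures were seeded in medium with 20% serum and FGF-basic. Scf-GFP-positive stroma (n = 2) was sorted and used fresh, as was Scf-GFP-negative stroma (n = 2), which passed the same negative gate but lacked the reporter and is a mixture of whatever else that gate holds. Nothing in the labels tells whether replicates came from different mice or dishes, and a p-value here covers the variation among libraries alone, part of which may be technical.

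Most genes that every cell needs are transcribed from promoters that stay free of nucleosomes in all cell types. Such promoters are often rich in CG pairs, called CpG islands, and are bound by widely expressed factors such as SP/KLF, ETS, NRF1, NF-Y and YY1 proteins. Genes of one cell type rely more on distant enhancers, whose opening differs between cells. A promoter can be open without being transcribed, so openness is not a measure of expression.

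The lists held 39912 to 78470 peaks on these chromosomes, from the authors' calls on 1 library at a time, and read depth is unknown. Levels were therefore compared on lists of equal size, the 39912 strongest peaks of each library by −log10 p. Going only by the names of the deposited lists, replicate 1 of every group came from another flow cell than the other replicates. The sample labels do not give the flow cell. Peak summits at the loci of 8 stromal marker genes numbered 33 to 34 in rMSC, 46 to 52 in control, 49 to 60 in Scf-GFP-positive and 6 to 8 in Scf-GFP-negative libraries. Summits at 8 blood cell loci numbered 9 to 10, 9 to 10, 14 to 16, and 38 to 45 in the same order of groups. Ptprc, Ikzf1, Gata1, Klf1 and Cd3e had more summits in both Scf-GFP-negative libraries than in either Scf-GFP-positive one. Spi1 and Cd79a did not, and Itgam had none in any sorted library. Ptprc also had 2 summits in every cultured library. Lepr, a defining stromal gene, had no summit in any cultured library, 2 in each Scf-GFP-positive one and 1 and 0 in Scf-GFP-negative ones. At 6 endothelial loci there were 3 to 7, 6 to 8, 2, and 1 to 7 summits. Scf-GFP-negative values below thus come from libraries with blood-type peaks despite the gate, and the part of those cells in any result was not tested. Fewer cells with an open region and a region less open in each cell cannot be told apart.

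The sequences before the gene starts show what the regions have in common beyond the rule. RefSeq lists 21045 start sites for 17274 of the 21631 protein-coding genes on these chromosomes (build GRCm38.p6, which has mm10 coordinates), and 8202 of these starts lay inside the regions. The 5 stretches that follow are the 150 bases before the start, 5′ to 3′, of members that passed in no comparison. They were picked after their values were seen because each holds a word bound by a widely expressed factor. Capitals mark the searched words on either strand, which are CCGGAA for ETS, CGCATGCG for NRF1, AGCCAAT for NF-Y, TGACGTCA for CRE, GGGCGG for SP/KLF, and the longer words of YY1 and the GFY element. No searched word contains another.
Hjurp (chr1:88277580-88277729, minus strand): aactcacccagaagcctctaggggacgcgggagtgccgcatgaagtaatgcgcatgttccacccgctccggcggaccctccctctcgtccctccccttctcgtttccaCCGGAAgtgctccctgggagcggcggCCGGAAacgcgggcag
Etfdh (chr3:79628768-79628917, minus strand): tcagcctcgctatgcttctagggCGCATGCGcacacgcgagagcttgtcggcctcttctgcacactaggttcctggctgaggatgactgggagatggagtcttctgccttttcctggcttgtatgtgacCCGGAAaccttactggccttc
Oxsr1 (chr9:119322428-119322577, minus strand): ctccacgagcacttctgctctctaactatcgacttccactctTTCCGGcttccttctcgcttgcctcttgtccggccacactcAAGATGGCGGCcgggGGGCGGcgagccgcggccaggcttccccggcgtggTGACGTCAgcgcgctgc
Ggps1 (chr13:14063489-14063638, minus strand): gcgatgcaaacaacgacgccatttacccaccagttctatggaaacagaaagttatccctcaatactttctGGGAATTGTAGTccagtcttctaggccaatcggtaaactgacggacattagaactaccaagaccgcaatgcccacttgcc
Rab8a (chr8:72161050-72161199, plus strand): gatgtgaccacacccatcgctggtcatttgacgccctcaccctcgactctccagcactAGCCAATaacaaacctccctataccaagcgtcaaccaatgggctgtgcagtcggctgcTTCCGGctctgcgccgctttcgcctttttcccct

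Hjurp, which loads the centromeric histone, has a pair of ETS words, and Etfdh, of the electron transfer chain, has 1 NRF1 and 1 ETS word. Oxsr1, a stress kinase, carries 4 different words, those of ETS, YY1, SP/KLF and CRE, in this stretch. Ggps1, which makes geranylgeranyl diphosphate, has only the GFY element among the searched words. Rab8a, a membrane traffic GTPase, has NF-Y and ETS words. The next 7 stretches belong to members that passed in at least 1 comparison and are described further on. In them capitals also mark TATAAA, the TATA box.
Fos (chr12:85473740-85473889, plus strand): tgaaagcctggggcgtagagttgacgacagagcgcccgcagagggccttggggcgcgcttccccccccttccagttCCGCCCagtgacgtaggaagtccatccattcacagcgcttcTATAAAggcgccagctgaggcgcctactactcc
Fosb (chr7:19310046-19310195, minus strand): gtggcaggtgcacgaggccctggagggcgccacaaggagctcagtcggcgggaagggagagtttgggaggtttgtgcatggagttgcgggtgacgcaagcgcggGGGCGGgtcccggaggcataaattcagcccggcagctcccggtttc
Nectin3 (chr16:46496968-46497117, minus strand): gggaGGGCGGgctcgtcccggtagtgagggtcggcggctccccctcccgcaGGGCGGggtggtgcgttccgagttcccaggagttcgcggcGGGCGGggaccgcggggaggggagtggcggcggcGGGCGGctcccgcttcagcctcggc
Sox12 (chr2:152398047-152398196, minus strand): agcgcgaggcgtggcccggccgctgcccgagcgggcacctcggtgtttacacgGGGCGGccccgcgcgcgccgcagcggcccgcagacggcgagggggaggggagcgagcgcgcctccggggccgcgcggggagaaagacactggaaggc
S100a4 (chr3:90603620-90603769, plus strand): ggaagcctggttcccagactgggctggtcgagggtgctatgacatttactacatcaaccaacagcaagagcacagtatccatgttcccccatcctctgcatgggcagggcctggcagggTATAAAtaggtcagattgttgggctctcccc
H2ac8 (chr13:23571221-23571370, minus strand): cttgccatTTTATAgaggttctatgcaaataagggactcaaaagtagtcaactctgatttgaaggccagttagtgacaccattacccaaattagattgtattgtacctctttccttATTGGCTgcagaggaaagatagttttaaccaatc
Irf7 (chr7:141266425-141266574, minus strand): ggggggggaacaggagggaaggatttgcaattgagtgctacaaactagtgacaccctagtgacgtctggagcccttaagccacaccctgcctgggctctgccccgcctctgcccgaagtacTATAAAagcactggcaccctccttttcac

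The difference in composition can be read from these lines. Nectin3 holds 4 SP/KLF words and Sox12 has 26 CG pairs within 150 bases, whereas S100a4 has 1 CG pair and a TATA box 31 bases before its start. H2ac8 has no CG pair, an NF-Y word, and the letters TATAAA only on the other strand, 142 bases before the start. Like S100a4, Fos and Irf7 have a TATA box, at 33 and 29 bases before the start.

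Over all starts the same contrast held as a description, in windows from 250 bases before to 50 after the start. Starts in the regions had a median of 23 CG pairs (quartiles 17 and 31) and 62.3% C and G, against 5 CG pairs (2 and 15) and 51.7% at the 12843 starts outside them. The SP/KLF word was in 71.5% of windows in the regions, against 30.8% outside and 46.7% of all windows. The ETS word stood in 34.5%, against 8.92% outside and 18.9% of all. NRF1 was in 5.15% against 0.864% (2.53% of all), YY1 in 2.13% against 0.101% (0.893%), and CRE in 4.05% against 1.11% (2.26%). The ZBTB33 word was in 1.43% against 0.202% (0.679%), GFY in 0.89% against 0.117% (0.418%), NF-Y in 12.9% against 7.09% (9.36%) and the E-box CACGTG in 11.5% against 5.65% (7.91%). Only 2 of the 11 words were rarer in the regions. The TATA box was in 5.51% of windows in the regions against 17.2% outside (12.7% of all), and the AP-1 word TGANTCA in 3.57% against 9.25% (7.04%). A word is a match of letters and not a bound site. Starts in regions that passed in at least 1 comparison and in regions that passed in none both had a median of 23 CG pairs, and their SP/KLF shares were 73.7% and 71.0%.

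Peak summits sat at the gene start. Among 4888 regions that hold exactly 1 listed start, the median summit over the 10 libraries lay at -37.5 bp (quartiles -108.5 and 31 bp, negative before the start), and in 73.6% it fell within the window from 250 bp before to 50 bp after. The single libraries had median offsets between -54 and -23 bp. The summit moved little between libraries. Over all 8020 regions the distance between the outermost of the 10 summits had a median of 219 bp (quartiles 154 and 376), against 251 bp (170 and 532.75) in the 2518 always-open regions farther than 1 kb from a gene.

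**Figure D1:**
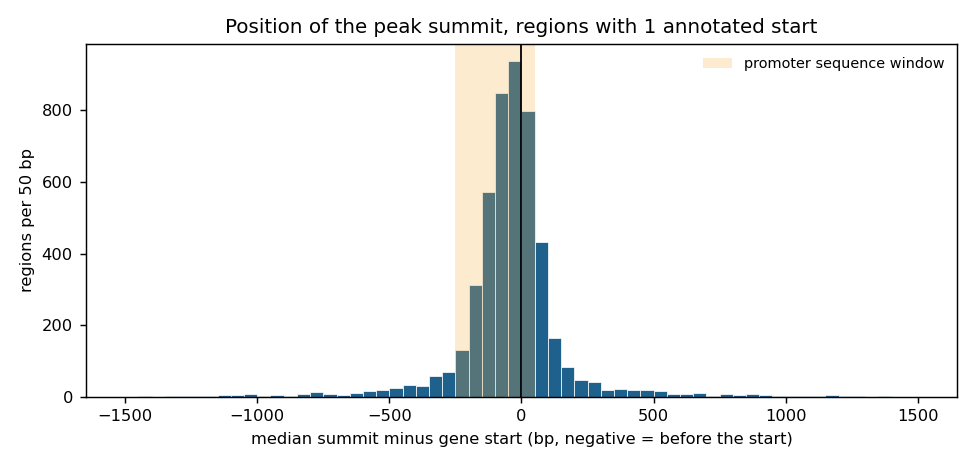
Position of the median peak summit relative to the gene start (bp on the x axis, negative before the start) for the 4888 always-open regions with 1 listed start, counted in 50 bp bins; shading marks the window of the promoter sequences. The bins pile up around the start, with a median of -37.5 bp.

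By annotation, 6518 of the 8020 regions lay within 1 kb of a gene start, 119 near a gene end and no start, and 1383 only near boundaries of genes whose strand was not in the table used here. In 865 regions starts on both strands were within 1 kb. The last were wider, with a median of 1704 bp against 1538 bp for regions with starts on 1 strand, and stronger, with a median strength percentile of 92.5 against 89.7. The strength percentile is the rank of a region's strongest peak within its library by −log10 p, on a scale where 100 is the strongest. Regions near a gene end and no start had a median percentile of 77.0. An edge lay on or over a boundary in 7470 regions. The regions came from all 20 chromosomes, and 35.5% to 51.6% of protein-coding genes on each autosome had one, against 25.2% on chromosome X.

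Most genes of the general cell machinery had one of the regions, and few genes of single cell types did. Over all 21631 protein-coding genes 9254, or 42.8%, had a region within 1 kb. The share was 96.7% of spliceosome genes (59 of 61), slightly lower for cytosolic ribosomal protein genes (80 of 87), 89.7% of mitochondrial ribosomal protein genes (70 of 78) and 89.6% of genes for RNA polymerases, general factors and Mediator (95 of 106). It was 89.4% for translation initiation factors (42 of 47), 87.8% for the proteasome (43 of 49), 82.9% for the respiratory chain and its assembly factors (87 of 105) and 75.6% for chaperones (62 of 82). Rps21, Eif5, Psma5, Polr3k, Med19, Atp5b and Hsp90b1 were among the strongest of these groups, and the strongest peak of each stood at or above the 92.6th percentile in every library. Of cell cycle and replication genes 26 of 27 had a region, of AP-1 and immediate early genes 22 of 26, of histone genes 68 of 100 and of Zfp zinc finger genes 248 of 400.

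At the other end, none of 1110 olfactory receptor genes, none of 109 keratin and keratin-associated genes and none of 15 endothelial genes had one. The 2 of 355 vomeronasal receptor genes were Vmn2r29 and Vmn1r4, whose region also lies at the start of Nt5c3. Of 22 blood cell genes 4 had a region, among them Klf1, Runx1 and Cd79a, and the region at Cd79a also lies at the start of Arhgef1. Of 13 osteoblast genes there were 2, Col1a1 and Sp7, and of 13 adipocyte genes there were 3, Cebpb, Cebpd and Adipor1. Among 20 blood stem cell niche factors Jag1, Tgfb1 and Angpt1 had a region. Kitl and Cxcl12, both defining niche genes, did not. The region over the Kitl start had 1408, 1409 and 1504 covered bases in rMSC, 873, 1185 and 967 in control, 1380 and 1150 in Scf-GFP-positive and 0 in both Scf-GFP-negative deposited lists. The region over the Cxcl12 start likewise had no peak in either Scf-GFP-negative list. Another region, 722 bp from that start, was open in 9 libraries, with 200 covered bases in Scf-GFP-negative replicate 1 and 0 in replicate 2.

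**Figure D2:**
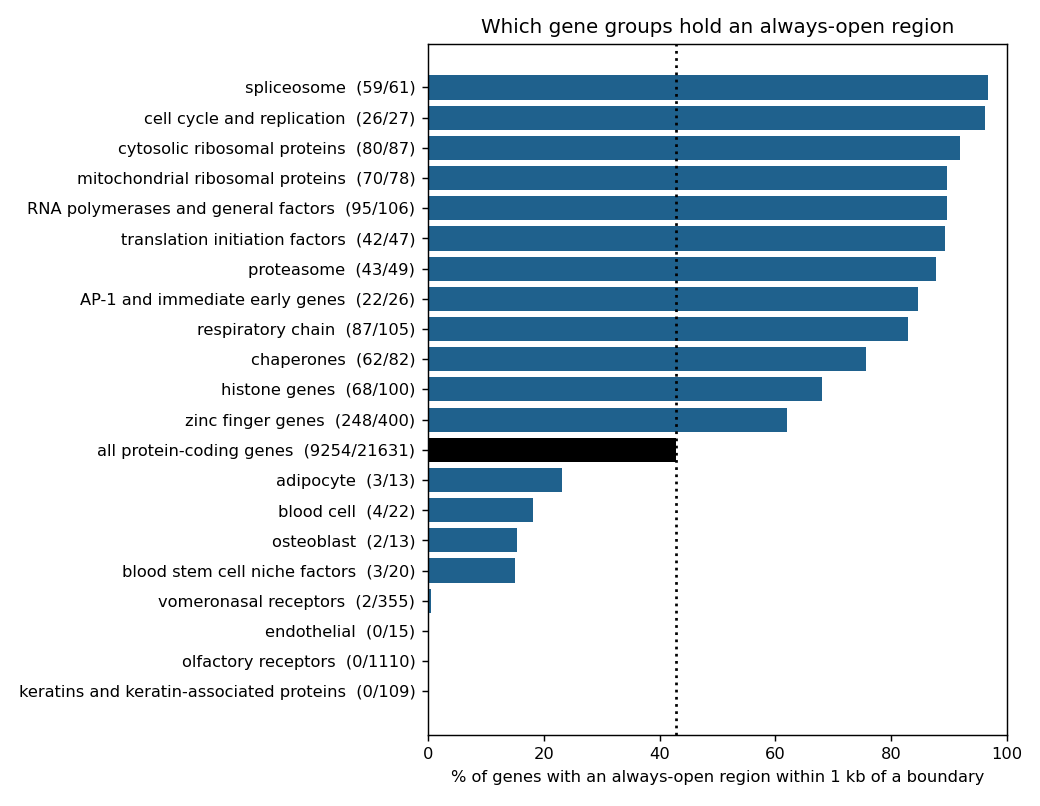
Share of genes with an always-open region within 1 kb of a boundary (x axis, %), by gene group, with counts in the labels and the share over all protein-coding genes as the black bar and dotted line (42.8%). Machinery groups from the spliceosome to chaperones lie between 75.6% and 96.7%, cell type groups at or under 23.1%.

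The strongest regions were strong in every library. By its weakest library the first was the Hjurp region (chr1:88272717-88280076), with a lowest percentile of 99.8 and a median fold enrichment of 126, a value of the authors. Next to it on chromosome 1 lay a pair of very wide regions at Mroh2a, of 18179 and 16249 bp. No stretches prone to excess signal from read mapping or copy number were removed here. Their part in these values was not tested. Glrx5, of iron-sulphur cluster assembly, Qdpr, which regenerates tetrahydrobiopterin, and Ubxn6 had a lowest percentile of 99.6. The region of Fam160a2 and Cnga4 had 99.5. Sp1, which encodes a factor that binds GGGCGG, also had 99.6. Its own width was near level, with 1749, 2018 and 1890 covered bases in rMSC, 1794, 1847 and 1936 in control, 1879 and 2004 in Scf-GFP-positive and 1920 and 2046 in Scf-GFP-negative libraries. The 4 weakest by median percentile were Kdm5b at 29.4, Sort1 at 30.5, Dnajc15 at 31.6 and Ezh1 at 36.6. Covered bases are the bases of a region under a library's peaks, and the narrowest deposited peak was 200 bp.

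The limit of 1 kb cut through no gap. The farthest region inside, at Esyt2, lay 997 bp from a boundary with a median percentile of 99.7, and the nearest outside, at Nbeal1 and Cirbp, both lay 1002 bp away with 98.7 and 97.0. Asking for a peak in every library cut more sharply, since 761 further regions near genes were open in 9 of 10 libraries. The library without a peak was a Scf-GFP-negative one for 320 (replicate 1) and 133 (replicate 2) of them, and control replicate 1 for 110. The lists of these libraries held 46833, 39912 and 48399 peaks, in that order. Scf-GFP-positive replicate 1, with 47632 peaks, was the one without for 38. The part of list length was not tested. The order of strength was shared within groups more than between them. Spearman's rho over the 8020 regions, given as a description, was 0.881 to 0.887 between rMSC libraries, 0.867 to 0.875 between control libraries, 0.865 between the Scf-GFP-positive and 0.832 between the Scf-GFP-negative libraries. It was 0.772 to 0.801 between rMSC and control and 0.576 to 0.648 between rMSC and Scf-GFP-negative libraries.

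The share of peak bases that lay in the regions differed between libraries, and is given as a description with no test, since peaks in these same lists chose the regions. In equal-size lists they held 33.7, 33.2 and 33.5% of all bases under peaks in rMSC, 34.2, 31.4 and 33.4% in control, 39.1 and 37.7% in Scf-GFP-positive and 44.0 and 42.9% in Scf-GFP-negative libraries. In these lists no cultured library reached any sorted one. With all deposited peaks they overlapped, since control replicate 1, at 31.8%, lay above Scf-GFP-positive replicate 2, at 30.2%. In equal-size lists the means were 33.2 ± 0.969% in cultured (SD, n = 6) and 40.9 ± 3.01% in sorted libraries (SD, n = 4), a difference of -7.67 points. Within the flow cell of the later replicates the means were 32.9 and 40.3%, and within that of replicate 1 they were 34.0 and 41.6%. The rule bears on this value, since the 3 shortest lists were of sorted libraries and every region had to be in them. The whole list of Scf-GFP-negative replicate 2 is its equal-size list and so holds all 8020 regions by construction, against 7796 to 8004 in the others.

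The median strength percentile within equal-size lists was 82.8, 82.4 and 81.7 in rMSC, 84.8, 81.8 and 83.7 in control, 87.7 and 87.1 in Scf-GFP-positive and 85.5 and 85.9 in Scf-GFP-negative libraries. Cultured minus sorted libraries was -3.67 points by this measure. With all deposited peaks the difference turned round to 0.97 points, so no direction is read from it.

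**Figure D3:**
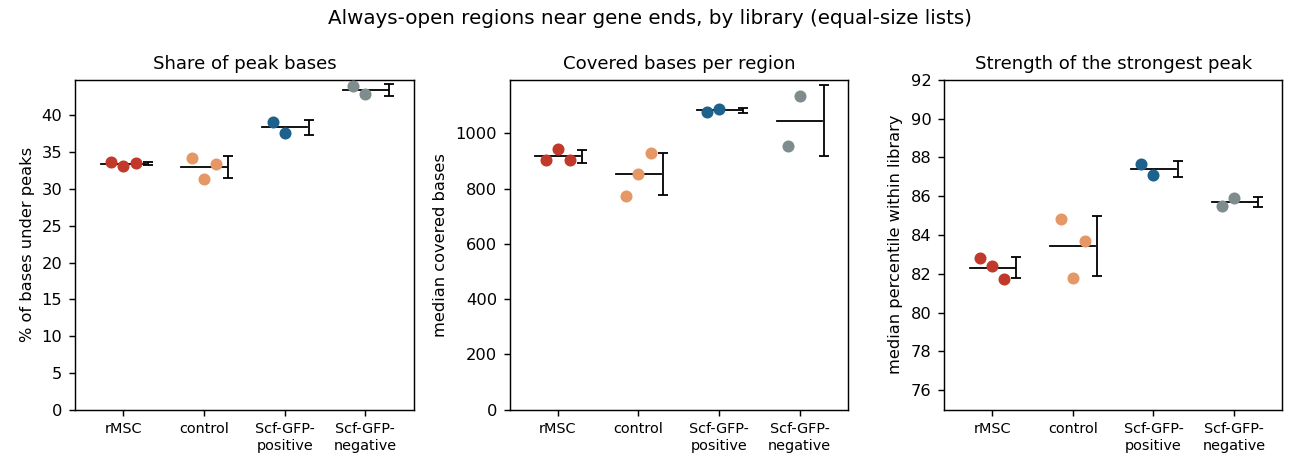
The 8020 always-open regions in each library, from equal-size lists: share of all bases under peaks (left, %), median covered bases per region (middle) and median strength percentile (right, axis from 75). Points are libraries, lines the group mean and bars 1 SD; the 4 sorted libraries, 37.7 to 44.0%, lie above the 6 cultured ones, 31.4 to 34.2%, in the left panel.

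The question of what changes at regions that are open everywhere was put to covered bases, scaled so that the median always-open region had the same width in each library. All 48588 regions with a mean of at least 100 covered bases were fitted together with limma on log2(scaled covered bases + 100), and all 8020 regions passed that filter. Adjusted p is Benjamini-Hochberg over those 48588, two-sided, with a threshold of 0.05, and log2 values are on this scale with their standard error (SE). Of the 8020 regions 419 passed for rMSC against control (221 more and 198 fewer covered bases), where 20.2% of all tested regions passed. For rMSC against Scf-GFP-positive 820 passed (401 more, 419 fewer) with 34.8% of all regions, and 644 (313 more, 331 fewer) for the same contrast with control in place of rMSC, with 31.2%. Between the sorted groups, Scf-GFP-positive against Scf-GFP-negative, 657 passed (387 more, 270 fewer) with 21.1% of all regions. These are 5.22, 10.2, 8.03 and 8.19% of the regions, below the background each time, but a peak in every library was what chose them, so nothing is read from the gap. At an unadjusted p under 0.05 the counts were 1169, 1463, 1289 and 1435. In all, 1736 of the 8020 (21.6%) passed in at least 1 comparison and 9 in all 4. Without Scf-GFP-positive replicate 1 or 2 the counts fell to 401 and 414 for rMSC against Scf-GFP-positive, to 308 and 318 for control in place of rMSC, and to 414 and 390 between the sorted groups, where leaving out Scf-GFP-negative replicate 1 gave 418.

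The balance of more and fewer depends on the scaling, since the median region had 775 to 945 covered bases in cultured and 956 to 1137 in sorted libraries. Without scaling the splits were 290 more and 78 fewer for rMSC against control, 127 and 860 for rMSC against Scf-GFP-positive, 47 and 1054 for the same contrast with control, and 424 and 190 between the sorted groups, and the median log2 difference of the 8020 regions moved to 0.08, -0.19, -0.29 and 0.03. Changes are given here relative to the median always-open region. In 4 groups of 2005 regions by median strength percentile, 4.84 to 6.18% passed for rMSC against control. Wide regions passed more often, which is given as a description. In 4 groups by width the share rose from 3.09% in the narrowest to 8.38% in the widest. For rMSC against Scf-GFP-positive it rose from 6.18 to 15.8%, and between the sorted groups from 4.24 to 14.1%. Width is the extent of the merged peaks of all libraries, so wide peaks in any group widen a region. Peaks of these same libraries also give the covered bases compared. The rise with width is therefore not read as a result.

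**Figure D4:**
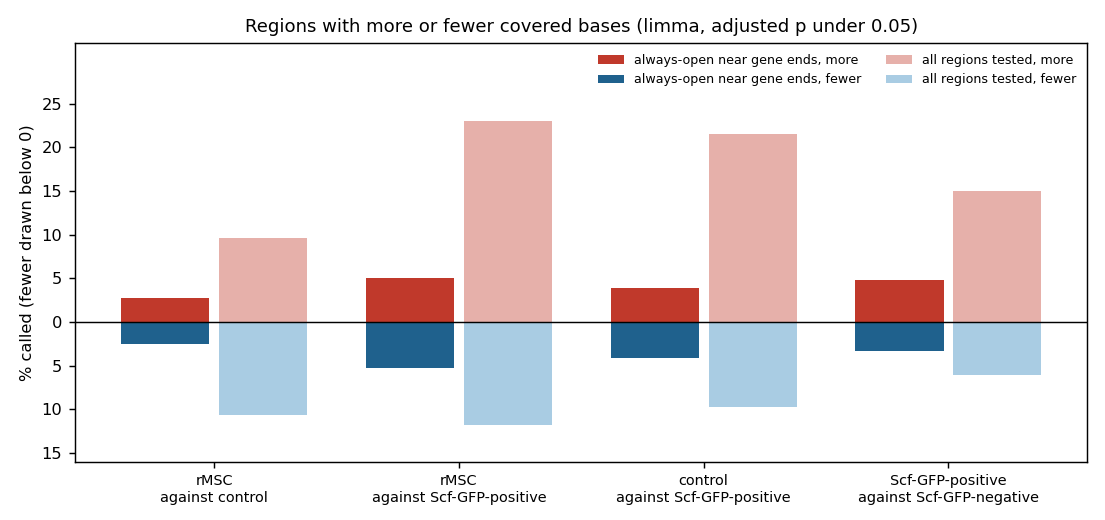
Share of regions with more (above 0) and fewer (below 0) covered bases at adjusted p under 0.05 (y axis, %), for the 8020 always-open regions near gene ends (dark) and all 48588 tested regions (pale), in 4 comparisons. The 8020 regions passed in 5.22 to 10.2% and all tested regions in 20.2 to 34.8%.

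Between rMSC and control a large gain was at Thbs1, which encodes the matrix protein thrombospondin-1. Its region (chr2:118110038-118130269) was the widest of all and spanned the whole gene of 15258 bp. It had 19772, 19629 and 19049 covered bases in rMSC, against 2657, 2303 and 2429 in control. The fresh cells had 2117 and 926 (Scf-GFP-positive) and 329 and 746 (Scf-GFP-negative). Peaks covered most of the gene in every rMSC library, and no other library came near that many covered bases. The log2 difference was 2.83 ± 0.30 (SE) against control (adjusted p = 0.000203) and 3.90 ± 0.34 against Scf-GFP-positive (adjusted p = 4.22e-05). The region is the union of the peaks of all libraries, so its extent largely follows the rMSC peaks. That rMSC peaks nearly fill it is therefore not a result.

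Sox12, a SoxC transcription factor gene, did the reverse. Its start region (chr2:152395346-152399468) had 452, 376 and 617 covered bases in rMSC, against 2692, 2657 and 3400 in control, and 3582 and 3624 in Scf-GFP-positive and 3635 and 3434 in Scf-GFP-negative libraries. Only the 3 rMSC libraries were low, and a narrow peak remained in each. The log2 difference was -2.50 ± 0.17 (SE) against control (adjusted p = 1.17e-05) and -2.49 ± 0.19 against Scf-GFP-positive (adjusted p = 2.04e-05). Both Thbs1 and Sox12 kept these calls under every alternative tried. Sox12 and the others named here as chosen later (AP-1, histone and cell cycle genes, S100a4, Vmp1, Jag1, Rhoc, Ptpn14, Rcan3) were picked after their values were seen.

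The other large gains in rMSC rest on peaks that fell below the equal-size limit in control. Phldb3, a pleckstrin-domain gene, had 706, 665 and 1092 covered bases in rMSC and 0 in the 3 control lists, where the deposited lists held 353, 352 and 429 (adjusted p = 4.54e-06). Zdhhc2, a palmitoyltransferase, had 679, 675 and 892 in rMSC against 0 in control, with 520, 245 and 431 in the deposited lists (adjusted p = 6.41e-06). Chd2, a chromatin remodeller, had 410, 769 and 462 in rMSC against 0, with 352, 400 and 200 deposited (adjusted p = 3.69e-05). With all deposited peaks Phldb3 still passed, and Zdhhc2 and Chd2 did not. A group with 0 in every equal-size list adds no spread to the fit. Adjusted p then does not measure the variation among the libraries of that group. This holds for every such region named here.

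Fewer covered bases in rMSC were seen at Pcdh7, a protocadherin gene, with 517, 0 and 712 in rMSC against 2358, 2880 and 3266 in control (log2 -3.09 ± 0.74 SE, adjusted p = 0.0219). Tut4, an RNA uridylyltransferase, had 0, 398 and 0 in rMSC against 894, 1039 and 905 in control (-2.75 ± 0.58, adjusted p = 0.0115). Ncoa1, a nuclear receptor coactivator, had 0, 502 and 0 against 1219, 658 and 1295 (adjusted p = 0.025), and Carmil3 had 0, 0 and 553 against 822, 1175 and 857 (adjusted p = 0.0373). Leaving out any 1 control library ended the calls of Pcdh7 and Carmil3, leaving out rMSC replicate 1 or 2 that of Carmil3, and leaving out rMSC or control replicate 1 or 3 that of Ncoa1. In the later flow cell alone, none of these 4 passed. Rcan3, a calcineurin regulator, had 0 in the rMSC lists of equal size (377, 400 and 390 deposited) against 289, 385 and 568 in control, a call (adjusted p = 2.08e-05) that ended with all deposited peaks.

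Both cultures were set against the same 2 Scf-GFP-positive libraries, so their differences share those values and are given side by side. S100a4, a calcium-binding protein gene, gained in both. Its region (chr3:90603347-90605464, shared with S100a3) had 1893, 1623 and 1520 covered bases in rMSC and 1136, 1232 and 1289 in control, against 200 and 205 in Scf-GFP-positive and 200 in both Scf-GFP-negative libraries. Fresh cells thus had a single peak of about the narrowest width. The log2 difference from Scf-GFP-positive was 2.70 ± 0.12 (SE) for rMSC (adjusted p = 1.3e-06) and 2.37 ± 0.12 for control (adjusted p = 2.4e-06), and both calls held under every alternative.

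Vmp1, an autophagy gene, gained at its end and not at its start. The end region (chr11:86578161-86583336) lies 522 bp past the gene and had 2916, 3621 and 3362 covered bases in rMSC and 2692, 3275 and 3054 in control, against 546 and 682 in Scf-GFP-positive and 843 and 1191 in Scf-GFP-negative libraries. The lowest cultured library lay well above the highest sorted one (log2 2.44 ± 0.12 SE, adjusted p = 2.54e-06, for rMSC and 2.42 ± 0.12, adjusted p = 2.88e-06, for control). By the rank of the strongest peak neither difference passed. The start region had 662, 588 and 705, 574, 576 and 917, and 584 and 992 covered bases in rMSC, control and Scf-GFP-positive and did not pass. The hairpin of Mir21a, a widely expressed microRNA, lies 731 bp from the end region at chr11:86584067-86584158. RefSeq gives its mature arm as follows, with the seed (bases 2 to 8) in capitals; no microRNA was measured here.
mmu-miR-21a-5p: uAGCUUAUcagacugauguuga

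In all, 85 of 1005 microRNA hairpins on these chromosomes lay within 1 kb of a region, and 64 overlapped one. Among them are Mir191, Mir484, Mir423 and Mir574.

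Further gains in culture had no peak in at least 1 of the equal-size Scf-GFP-positive lists. Itgb7, an integrin gene, had 1765, 2339 and 1405 covered bases in rMSC and 1183, 1071 and 1087 in control, against 0 in Scf-GFP-positive (303 and 200 deposited), with adjusted p = 8.06e-06 and 1.71e-05. Fbxw17 had 567, 703 and 573 in rMSC and 588, 439 and 706 in control, against 0 (200 and 291 deposited). Tmem101 had 442, 552 and 621 in rMSC and 717, 726 and 531 in control, against 0 (200 and 200 deposited). Iffo1, whose region also lies within 1 kb of Gapdh, had 1194, 1632 and 1350 in rMSC and 982, 1499 and 1160 in control, against 200 and 0 (log2 3.19 ± 0.40 SE, adjusted p = 0.000401, for rMSC). These 4 regions passed for both cultures under every alternative.

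Losses in culture included Sort1, the sorting receptor sortilin, with 0 in all 6 cultured lists (200 to 410 deposited) against 1529 and 1215 in Scf-GFP-positive (adjusted p = 1.13e-05 for rMSC and 1.18e-05 for control). Zfp217 had 0 in the 3 rMSC lists and 0, 0 and 465 in control, against 1586 and 1285 in Scf-GFP-positive, with adjusted p = 0.00421 for rMSC and 0.016 for control. The control call ended with all deposited peaks and without either Scf-GFP-positive library. Tifa, an adaptor of innate immune signalling, had 567, 0 and 0 in rMSC against 3237 and 2964 in Scf-GFP-positive (adjusted p = 0.00921), and Adcy6, an adenylyl cyclase, had 0 against 1487 and 1192 (adjusted p = 0.00468). Tifa lost its call without either Scf-GFP-positive library. Trak1 had 0 in control against 1729 and 1576 in Scf-GFP-positive (adjusted p = 0.00418), but all deposited peaks ended the call. Pde5a had 360, 0 and 0 against 1808 and 2085 (adjusted p = 0.016), a call lost without control replicate 2 or either Scf-GFP-positive library. Phldb3, gained in rMSC over control, had 0 in the control lists against 1223 and 1437 in Scf-GFP-positive (adjusted p = 4.69e-06), and rMSC against Scf-GFP-positive did not pass (log2 -0.46 ± 0.21 SE, adjusted p = 0.134).

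Between the sorted groups, Nectin3, Jag1, Rhoc and Ptpn14 had wider regions in Scf-GFP-positive than in Scf-GFP-negative cells. Nectin3, a cell adhesion gene, had 2495 and 2791 covered bases in Scf-GFP-positive against 270 and 241 in Scf-GFP-negative libraries (log2 2.85 ± 0.13 SE, adjusted p = 1.49e-06). In culture it stayed wide, with 2450, 2336 and 2440 in rMSC and 2503, 2770 and 2553 in control. Jag1, a Notch ligand of the niche list, had 3936 and 4293 against 438 and 506 (2.80 ± 0.21, adjusted p = 3.31e-05). Rhoc, a small GTPase of the cytoskeleton, had 3005 and 2512 against 227 and 380 (2.76 ± 0.14, adjusted p = 3.34e-06). Ptpn14, a phosphatase, had 1471 and 2314 against 201 and 221 (2.55 ± 0.20, adjusted p = 3.68e-05). Nectin3, Jag1, Rhoc and Ptpn14 passed under every alternative.

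Tnrc18 had 5285 and 4598 in Scf-GFP-positive against 0 and 599 in Scf-GFP-negative libraries (4.18 ± 0.69, adjusted p = 0.00308). Atn1 had 3087 and 2547 against 0 and 759, and Dusp4, a MAP kinase phosphatase, 1722 and 2206 against 0 and 523, with adjusted p = 0.0229 and 0.0183. Those last 2 calls ended without either Scf-GFP-positive library. In the other direction Tmem101 had 0 (200 and 200 deposited) against 469 and 716 (adjusted p = 8.56e-05). Iffo1 had 200 and 0 against 731 and 1250 (adjusted p = 0.00404), and Plscr2 had 0 against 679 and 1314, a call that ended with all deposited peaks. A region 320 bp from Rpl3 had 251 and 0 against 651 and 1064 (adjusted p = 0.0323), lost without Scf-GFP-positive replicate 2 or either Scf-GFP-negative library.

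AP-1 and immediate early genes encode factors, many of which cells switch on within minutes of a stimulus. Several of their regions were narrower in rMSC than in control. Of their 30 regions 6 had fewer covered bases in rMSC than in control and 1 had more, where 10.6% of all tested regions had fewer and 9.58% more. The list's median log2 difference was -0.12, beside -0.01 for all 8020 regions. Without scaling 3 were fewer and none more. Fosb had 3300, 4236 and 3222 covered bases in rMSC against 6745, 9908 and 9386 in control (log2 -1.35 ± 0.15 SE, adjusted p = 0.000222). Fos had 3733, 2416 and 2584 against 4737, 5079 and 6303 (-0.98 ± 0.17, adjusted p = 0.00353). Jund had 3704, 4723 and 2904 against 5359, 6417 and 7112 (-0.85 ± 0.18, adjusted p = 0.0125), and Jun 4079, 4096 and 3758 against 5538, 6046 and 6017 (-0.66 ± 0.13, adjusted p = 0.00744). Egr1 had 4189, 6012 and 4750 against 5378, 6627 and 7414 (-0.48 ± 0.11, adjusted p = 0.019), a call lost without rMSC replicate 3, control replicate 2 or control replicate 3. The regions are wide, with 11644 bp at Fosb and 6910 bp at Fos. At Fos the Scf-GFP-positive libraries had 3177 and 2813 covered bases, within the range of rMSC. At Fosb they had 6491 and 8418, above that range. Without scaling Jun and Egr1 did not pass, within the later flow cell Jund and Egr1 did not, and by the rank of the strongest peak none of these 5 passed.

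Against Scf-GFP-positive, 7 of these 30 regions had more covered bases in control and 1 fewer, where 21.6% of all regions had more and 9.69% fewer, but without scaling 2 had more and 5 fewer. Without Scf-GFP-positive replicate 1 the 7 became 2, and without Scf-GFP-positive replicate 2, control replicate 2 or control replicate 3 they became 4. In rMSC 2 had more and 4 fewer, where 23% of all regions had more and 11.8% fewer. Without rMSC replicate 3 or either Scf-GFP-positive library the 4 became 2, and without any 1 library other than Scf-GFP-positive replicate 1 the 2 became 1. Between the sorted groups 9 had more in Scf-GFP-positive than in Scf-GFP-negative and none fewer, where 15% of all regions had more, and the list's median log2 was 0.33 beside -0.03 for all 8020. Fosl2 had 4054 and 2841 against 699 and 857 (1.92 ± 0.20, adjusted p = 0.000209), Egr3 had 2285 and 3154 against 200 and 799 (2.35 ± 0.42, adjusted p = 0.00508), and Fosb 6491 and 8418 against 2480 and 2558 (1.45 ± 0.18, adjusted p = 0.000614). A second Fos region, 669 bp before the start, had 1247 and 1388 against 285 and 485 (adjusted p = 0.00175).

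Of 44 regions at histone genes 13 had fewer covered bases in Scf-GFP-positive than in Scf-GFP-negative and 1 had more, where 6.03% of all tested regions had fewer. Leaving out 1 library of these groups left 6 to 8, and without scaling there were 9. The list's median log2 was -0.44, and its median covered bases were 1486 and 1434 in Scf-GFP-positive against 1660 and 2179 in Scf-GFP-negative libraries. The region of H2ac8 and 4 further histone genes had 2160 and 3102 against 5718 and 7497 (-1.37 ± 0.25, adjusted p = 0.00599). The H2ac15 region had 1303 and 1659 against 3022 and 3974 (-1.24 ± 0.14, adjusted p = 0.000366), H4c6 had 470 and 674 against 1531 and 1260 (-1.21 ± 0.21, adjusted p = 0.00406), and H2ax 1039 and 1042 against 1659 and 2105 (-0.85 ± 0.14, adjusted p = 0.0039). Several of these regions hold more than 1 gene, so regions and not genes are counted. In culture H3c11 had 1093, 1451 and 1340 in rMSC against 579, 499 and 482 in control (1.07 ± 0.15, adjusted p = 0.00105).

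Of 29 regions at cell cycle and replication genes 5 had fewer covered bases in Scf-GFP-positive than in Scf-GFP-negative and none more, where 6.03% of all tested regions had fewer and 15% more, and the median log2 was -0.35. Without Scf-GFP-negative replicate 2 the 5 became 3. The region of Cenph, a kinetochore gene, and Ccnb1, cyclin B1, had 462 and 719 against 2405 and 3809 (-2.25 ± 0.30, adjusted p = 0.00101). Plk1, a mitotic kinase, had 677 and 736 against 1791 and 2249 (-1.44 ± 0.23, adjusted p = 0.00265). Mcm6, of the replicative helicase, had 1222 and 1022 against 2830 and 2939 (-1.35 ± 0.16, adjusted p = 0.000389). The Scf-GFP-negative libraries are those with 38 and 45 summits at blood cell loci, and the part of blood cells in the histone, cell cycle and AP-1 differences was not tested.

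In rMSC 5 of the 29 cell cycle regions had more covered bases than in Scf-GFP-positive and none fewer, where 23% of all regions had more, and without scaling 2 had more and 2 fewer. Without rMSC replicate 3 or Scf-GFP-positive replicate 2 there were 2 with more, without rMSC replicate 2 or Scf-GFP-positive replicate 1 there were 3, and without any 1 rMSC library 1 had fewer. Mcm6 had 2336, 2115 and 2252 in rMSC and 1124, 929 and 1235 in control, against the same 1222 and 1022 (rMSC against control 0.87 ± 0.13 SE, adjusted p = 0.00141, and rMSC against Scf-GFP-positive 1.14 ± 0.14, adjusted p = 0.000377). Plk1 had 1234, 1363 and 1406 in rMSC (1.02 ± 0.21, adjusted p = 0.00695, against Scf-GFP-positive), a call lost without Scf-GFP-positive replicate 1. For Mcm6 the rank of the strongest peak gave the opposite sign, at -0.65 for rMSC against Scf-GFP-positive and 0.12 between the sorted groups.

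Among niche and bone genes, Tgfb1 had 1569, 1906 and 2290 covered bases in rMSC and 1323, 1846 and 2304 in control, against 4671 and 3529 in Scf-GFP-positive (rMSC -0.85 ± 0.21 SE, adjusted p = 0.0166, and control -0.84 ± 0.21, adjusted p = 0.0191). Both calls ended without Scf-GFP-positive replicate 1, and each without replicate 1 of its own culture. Col1a1, the main bone collagen gene, had 1147, 1504 and 1152 in rMSC and 1336, 1893 and 1940 in control, against 1136 and 617 in Scf-GFP-positive and 200 and 256 in Scf-GFP-negative. The last difference was 1.45 ± 0.25 (adjusted p = 0.00454), and control against Scf-GFP-positive was 1.23 ± 0.23 (adjusted p = 0.00467). Angpt1 did not pass in any comparison.

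All 5 transduced genes had an always-open region at their own start, and none differed between rMSC and control at the threshold. Klf7 had 1500, 1592 and 1691 covered bases in rMSC against 1524, 1798 and 1528 in control (log2 -0.12 ± 0.16 SE). Irf7 had 1300, 2240 and 1746 against 1045, 833 and 840 (0.77 ± 0.24, adjusted p = 0.0679), and the region shared by Irf3 and Bcl2l12 had 1585, 1729 and 1600 against 1139, 1200 and 1014 (0.42 ± 0.12, adjusted p = 0.0533). The groups did not overlap at these last 2 genes. Xbp1 had 1583, 1628 and 1499 against 1378, 2235 and 1941, and Ostf1 had 830, 1056 and 952 against 1051, 1157 and 1075. Irf7 was higher in rMSC than in Scf-GFP-positive, which had 794 and 1352 (0.87 ± 0.27, adjusted p = 0.0404), a call lost without rMSC replicate 2, rMSC replicate 3 or Scf-GFP-positive replicate 1. Control, which received none of the 5 genes, had more covered bases than Scf-GFP-positive at Xbp1, where Scf-GFP-positive had 1466 and 1264 (0.69 ± 0.16, adjusted p = 0.0141), and at Ostf1, where it had 1103 and 822 (0.47 ± 0.15, adjusted p = 0.0485). At both genes the unscaled values of the groups overlapped. The Xbp1 call ended without scaling, by the rank of the strongest peak and without Scf-GFP-positive replicate 2. The Ostf1 call passed under no alternative except a pseudocount of 500 and leaving out Scf-GFP-positive replicate 1, and by rank it reversed to -0.15. The peak lists do not tell the native gene from vector copies.

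Gapdh and Actb are often used as references for expression. The region over the start of Gapdh had 2737, 3037 and 3115 in rMSC against 1589, 2338 and 2170 in control (0.44 ± 0.11, adjusted p = 0.0241), which no longer passed with all deposited peaks, without scaling, or without rMSC replicate 2 or 3 or control replicate 1 or 3. Actb had 3190, 3098 and 3020 in rMSC against 1668 and 2425 in Scf-GFP-positive (0.80 ± 0.25, adjusted p = 0.0441), a call that ended without any 1 library of these groups.

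**Figure D5:**
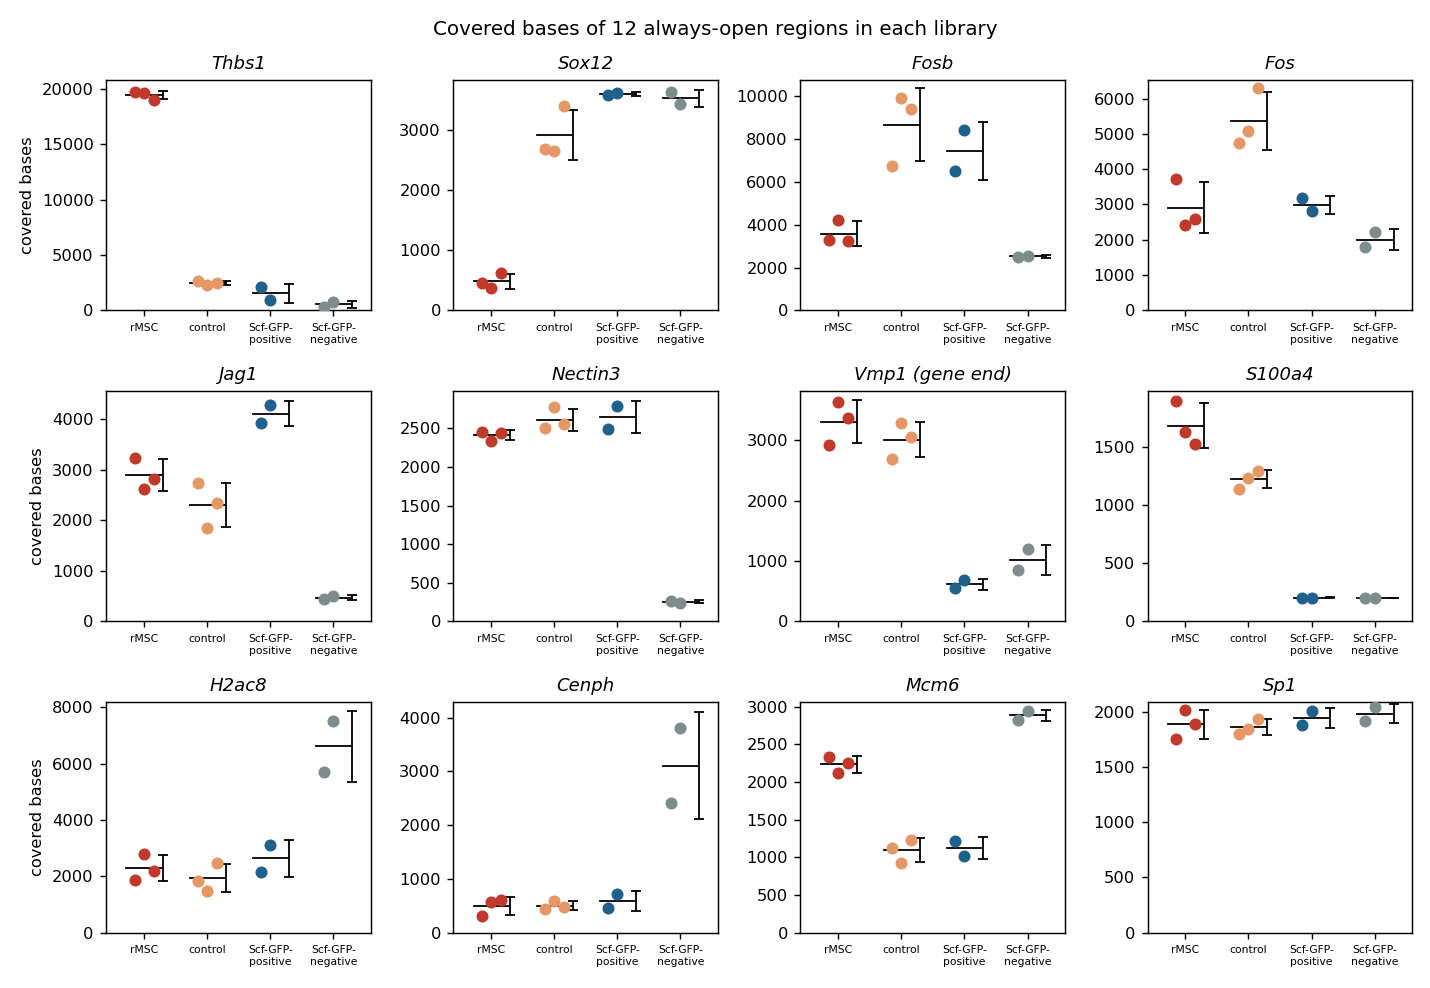
Covered bases (y axis, from 0) of 12 always-open regions in each library, with the group mean as a line and 1 SD as a bar. Thbs1 is wide in rMSC alone (19049 to 19772) and Sox12 narrow there alone (376 to 617), S100a4 and the Vmp1 end widen in both cultures, Jag1 and Nectin3 are narrow in Scf-GFP-negative, and Sp1 is about level.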

How the data were processed

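The 10 libraries were deposited as narrowPeak lists, made with BWA and MACS2 on mm10 per the submitters' processing notes, 1 list per library. Per the file format, the authors' columns hold fold enrichment over background (a ratio), −log10 p, −log10 q and a display score. Only peak lists were used here, so read depth is unknown. Regions, equal-size lists (the 39912 strongest peaks by −log10 p) and covered bases were computed from them. limma 3.58.1 (R 4.3.3) fitted log2(covered bases + 100) over all 48588 regions with a mean of at least 100 covered bases, with 4 groups in 1 fit and each library scaled by its median over always-open regions (factors 0.822 to 1.175). In simulated data 2-fold changes were recovered in 73 to 79 of 100 regions per comparison.

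The regions and gene lists were chosen with earlier results of these data known, and unrelated symbols sharing a prefix were removed from the lists. Regions were named by fixed rules: up to 4 passing regions with the largest change per comparison and direction without overlap between groups, the 6 strongest, the 4 widest and 4 weakest, those at the 1 kb limit, the transduced genes, Kitl, Cxcl12, Gapdh and Actb, and up to 3 per list by strength. Others were named after their values were seen. Alternatives covered peak lists, scaling, filters, pseudocounts, rank of the strongest peak, flow cell and leaving out each library. Gene boundaries and promoter and microRNA sequences are from RefSeq. Some named regions are not reported here.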

Additional observations from a re-analysis of the deposited data

Results flagged for a closer look

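Among the 6 cultured libraries, control replicate 2 had the lowest share of covered bases in the always-open regions near genes, 31.4%, and stood apart from the others, which held 33.2 to 34.2%. Its gap to the nearest library was 0.628 of the range of the 6, just above Dixon's 95% limit for 6 samples. Such a gap arises by chance in about 1 in 20 groups. It was the only gap past its limit among those looked at. These were taken at both ends, in cultured and in sorted libraries and for 2 values, so 1 such gap by chance is likelier than that. The 6 libraries also pool rMSC and control, and peaks in these lists chose the regions, so the gap is a description. Without control replicate 2 the difference between cultured and sorted libraries was -7.30 points, against -7.67 with it.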

How the results depend on the processing

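The number of regions with more or fewer covered bases for rMSC against control was 419, and became 199 with no filter on covered bases, 224 with a mean of at least 300, 706 by the rank of the strongest peak and 207 in flow cell AC99CPACXX alone, the last chosen after seeing the data. For rMSC against Scf-GFP-positive no filter gave 505. For control against Scf-GFP-positive no filter gave 341 and no scaling 1101. Leaving out 1 library gave 298 to 362, 401 to 668, 308 to 594 and 390 to 576 in the 4 comparisons, and 8042 to 8340 regions in all. Asking that peaks cover no less of a region than they leave uncovered gave 2442 regions. The share difference was -7.39 points in flow cell AC99CPACXX and -7.59 in AHY33MBCXX, this one chosen after seeing the data, and the percentile difference was -4.10 and -2.78 there; both are descriptions. Leaving out 1 library gave -8.76 to -6.64 and -4.06 to -3.30. The percentile difference reversed to 0.97 with all deposited peaks and 2.89 with −log10 q of at least 5; the cause was not tested.

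With the replicate number as a block the counts were 340, 697, 532 and 523. By the names of the deposited lists, the 4 replicate 1 libraries share a flow cell and the other 6 share another. The labels name nothing that same-numbered libraries share. Deviations of same-numbered libraries from their group means correlated at -0.0056 to 0.0133, so the numbers were not treated as pairs.

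Of 128 named calls 30 passed under every alternative. By the rank of the strongest peak 17 reversed. For rMSC against Scf-GFP-positive these were Mcm6 at -0.65, Arhgef1 at 0.53, Med26 at 0.33, Junb at 0.41, H2ax at -0.998 and Egr1 at -0.22. For control against Scf-GFP-positive they were Polr3k at -0.32, Qdpr at -0.15, Junb at 0.64, H3c11 at 0.89, Egr1 at -0.12 and Ostf1 at -0.15. Between the sorted groups they were Mcm6 at 0.12, Tmem230 at 0.31, Ndufb5 at 0.37, Cox18 at 0.40 and Esyt2 at 0.12. With all deposited peaks Plscr2 reversed to -0.23 for control against Scf-GFP-positive. The cause was not tested. Depth is unknown, so a weak peak missing from a list is not an absent one.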
